A study of Mus musculus with 12 samples.

Results

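The matrix metalloproteinases (MMPs), the ADAM and ADAMTS proteases and the tissue inhibitors of metalloproteinases (TIMPs) were followed in mouse livers carrying NICD1/Akt-driven cholangiocarcinoma (CCA), a cancer of bile duct type. Members were the protein-coding genes whose symbols begin with Mmp, Adam, Adamts or Timp and that had at least 0.5 CPM (counts scaled to a common library total) in at least 3 of 12 libraries. By this rule 53 of 82 measured family genes were members, among 21807 gene IDs. Of the 53, 41 reached the level in at least 3 of the 6 control libraries as well, and 12 met the rule only through NICD1/Akt libraries: Adamts3, Adamts8, Adamts17, Adamtsl3, Adam22, Timp4, Mmp7, Mmp8, Mmp13, Mmp25, Mmp27 and Mmp28. These 12 were kept through the group in which they were high, so the main counts are also given without them. Mmp7 was just inside the rule, with 3 libraries at the level, and Adam5, Adamts20, Mmp3 and Mmp16, with 1 each, were just outside.

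C57BL/6J mice received plasmids encoding the Notch1 intracellular domain (NICD1, 10 µg), myristoylated AKT (myr-AKT, 10 µg) and the Sleeping Beauty transposase by hydrodynamic tail vein injection (HTVi), which carries DNA mainly into hepatocytes. Livers were taken 3 weeks after HTVi, with libraries 1, 2 and 3 from NICD1/Akt mice and 10, 11 and 12 from control mice, and 2 weeks after HTVi, with libraries 33, 34 and 35 from NICD1/Akt mice and 30, 31 and 32 from control mice. The labels give the genotype as NICD/myr-AKT for the injected mice and as WT for the controls, which were not injected, so the injection and the oncogenes cannot be told apart. All mice shared the C57BL/6J strain, and the study's methods name males of 5 weeks at injection. Values of each group follow the library order given here. The NICD1/Akt tissue is labelled as tumor excised from liver and was sequenced in bulk, in which fewer cells of a type and less RNA per cell cannot be told apart, and whether the libraries of a group are from different mice is not stated, so p-values cover only the spread among libraries, which may be technical.

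Libraries held 13136892 to 19594839 counts. The library labelled control 32 went against its label: its Notch1, Akt1 and Spp1 levels were 106, 381 and 1875 CPM, against 49.1, 90.9 and 56.6 CPM in library 30 and 53.8, 90.1 and 53.7 CPM in library 31, and all 3 values were within the range of NICD1/Akt libraries 33, 34 and 35. Notch1 and Akt1 counts can include transgene reads. The Y-linked Ddx3y had 57.2 CPM in library 32 and 0 to 0.398 CPM in the remaining 5 libraries of that stage. At 3 weeks it had 52.2 to 61.2 CPM in NICD1/Akt livers and 120 to 126 CPM in controls. Its near absence from 5 libraries of 2 weeks goes against the males named in the methods. Sex therefore cannot be told apart from stage, and leaving out library 32 also removes the only 2-week library with Ddx3y above 0.398 CPM. Library 32 was kept in its labelled group, and the 2-week fits and counts of members are given with and without it.

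MMPs are secreted or membrane-anchored enzymes that cut collagens and other matrix proteins. ADAMs are mostly membrane proteins, of which ADAM10 and ADAM17 release growth factors, cytokines and receptors from the cell surface; ADAM10 also makes the cut in full-length Notch receptors that precedes the release of their intracellular domain, whereas NICD1 is that domain itself. ADAMTS enzymes are secreted and trim procollagens, proteoglycans and von Willebrand factor, ADAMTS-like proteins share their matrix-binding modules without the protease domain, and TIMPs inhibit the enzymes. In fibrotic liver, activated stellate cells are a known source of Timp1 and Mmp2.

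At 3 weeks, 39 of the 47 members tested were higher in NICD1/Akt than in control livers, and 3 were lower (edgeR quasi-likelihood test, adjusted p under 0.05 over all genes). The 3 lower members were Mmp19, Adam9 and Adam23. Over all 13408 genes tested, 38.9% were higher and 33.1% lower. The median log2 fold change (log2FC) of the members was 2.31, against 0.06 for all genes. Among the members that also passed in controls, 32 of 40 were higher and 3 lower, with a median of 2.01. With CPM scaled within the stage, all 3 NICD1/Akt libraries lay above all 3 control libraries for 38 members (41.3% of all genes) and below them for 4 (35.5% of all genes). Among the 40 that also passed in controls these counts were 31 and 4. With library size as the only scaling, the median of all genes moved to 0.77, the genome-wide split to 9076 higher and 1287 lower, and the members to 40 higher and 2 lower. The map of the members by library shows these levels.

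**Figure D1:**
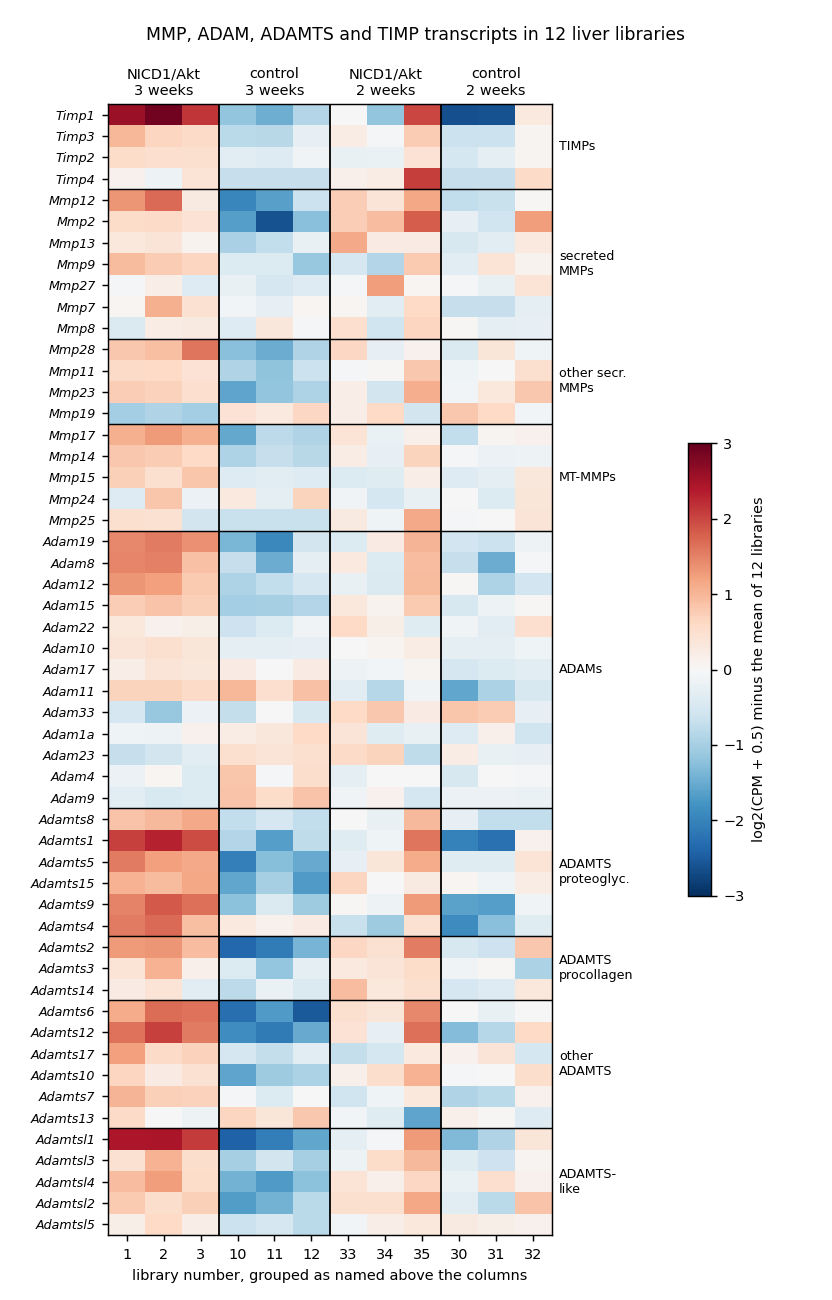
Each row is one member and each column one library, grouped as NICD1/Akt 3 weeks, control 3 weeks, NICD1/Akt 2 weeks and control 2 weeks; color is log2(CPM + 0.5) minus the mean of the 12 libraries. Columns 1, 2 and 3 are mostly red and columns 10, 11 and 12 mostly blue, with Mmp19, Adam9 and Adam23 the other way, and columns 35 and 32 are redder than the others of their groups at 2 weeks for many members.

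Per kilobase of exon, the order of the members differed between groups. In NICD1/Akt livers of 3 weeks Adamts1 stood first at 65.4 CPM per kilobase, followed by Timp1 at 23.1, Mmp15 at 21.1 and Mmp14 at 19.0. In control livers at 3 weeks Adam9 stood first at 41.3 CPM per kilobase, followed by Mmp19 at 24.8 and Mmp15 at 10.2, with Adamts1 at 7.26 and Timp1 at 1.21. The summed CPM of all 53 members, which is not per length, was 1549, 1579 and 1418 in NICD1/Akt livers of 3 weeks, against 717, 654 and 793 in controls, and the groups did not overlap.

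The inhibitors were tested for 3 of 4 genes at 3 weeks, and all 3 were higher (38.9% of all genes). Timp1, the inducible inhibitor, had 20.8, 25.7 and 15.1 CPM in NICD1/Akt livers of 3 weeks, against 1.04, 0.783 and 1.42 CPM in control livers (log2FC 4.36 ± 0.29 SE, adjusted p = 4.61e-06). Every NICD1/Akt library was above every control library. At 2 weeks Timp1 had 3.05, 1.04 and 13.7 CPM in NICD1/Akt livers, against 0.0666, 0.0721 and 3.79 CPM in control livers, so library 35 was the highest of the 6 and library 32 lay within the NICD1/Akt range. Libraries 30 and 31 held 1 Timp1 count each, against 409 in libraries 33 to 35, a ratio of 109 (95% counting interval 30.1 to 907). Of the 409 counts, 349 were in library 35, and the interval leaves out this spread between libraries. With library 32 the log2FC was 2.23 ± 1.50 SE. Timp3, which binds the matrix and also inhibits ADAM17 and several ADAMTS enzymes, had 156, 122 and 116 CPM in NICD1/Akt livers of 3 weeks, against 44.1, 43.6 and 65.2 CPM in controls (log2FC 1.48 ± 0.19 SE, adjusted p = 0.000154). Timp3 at 2 weeks had 90.6, 74.5 and 132 CPM in NICD1/Akt livers, against 49.5, 50 and 83 CPM in controls (log2FC 0.72 ± 0.30 SE, or 1.01 ± 0.28 SE without library 32), with library 32 above NICD1/Akt library 34. Timp2, which takes part in the activation of pro-MMP2 by MMP14, had 66.6, 63.9 and 62.4 CPM in NICD1/Akt livers of 3 weeks, against 35.4, 34.3 and 41.5 CPM in controls (log2FC 0.91 ± 0.10 SE, adjusted p = 6.88e-05), the smallest change of the 3. Its 2-week values were 38.7, 39.2 and 60.8 CPM in NICD1/Akt livers and 31.1, 36.9 and 47.8 CPM in controls, which overlapped (log2FC 0.27 ± 0.25 SE, or 0.46 ± 0.26 SE without library 32). Exons of Timp3 overlap Syn3, and those of Timp4 Syn2, on the opposite strand. Timp4 was too low for the test. It had 0.379, 0.221 and 0.559 CPM in NICD1/Akt livers of 3 weeks, against 0, 0 and 0 CPM in controls, which is 28 counts over the NICD1/Akt libraries, against 0 over the controls, at least 4.36-fold higher with the control group set at a floor of 3 counts. At 2 weeks Timp4 had 0.398, 0.444 and 2.87 CPM in NICD1/Akt livers, against 0, 0 and 0.695 CPM in controls, so library 35 was the highest and library 32 the only control with counts. Against libraries 30 and 31 alone it was at least 15.2-fold higher, with that floor set over both. Library 35 held 73 of the 85 Timp4 counts behind this value.

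**Figure D2:**
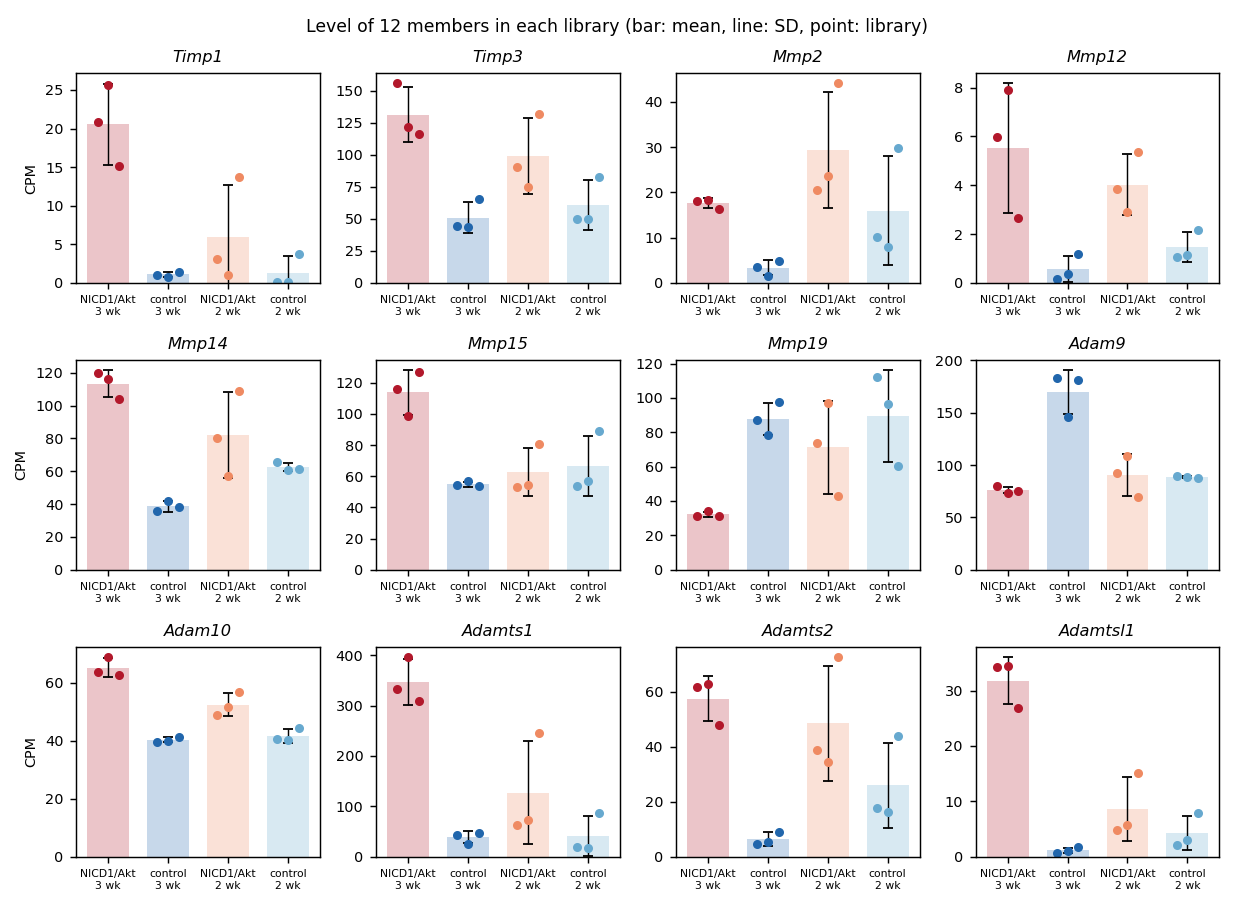
CPM (linear axis from 0) of 12 members in each library, with points for libraries, bars for the group mean and lines for the SD of 3. Adamts1 lies between 309 and 397 CPM in NICD1/Akt livers of 3 weeks and between 24.9 and 47.1 CPM in their controls, while Mmp19 and Adam9 are lower in NICD1/Akt livers of 3 weeks; at 2 weeks the right-hand point of each group, library 35 or 32, is often the highest.

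Among the secreted collagenases, gelatinases and related MMPs, the 4 tested at 3 weeks were higher (38.9% of all genes), and Mmp7, Mmp8 and Mmp27 were too low for the test. Of the 4, Mmp13 met the abundance rule only through NICD1/Akt libraries. Mmp2, gelatinase A, had 18.1, 18.4 and 16.4 CPM in NICD1/Akt livers of 3 weeks, against 3.54, 1.57 and 4.83 CPM in controls (log2FC 2.53 ± 0.29 SE, adjusted p = 9.56e-05). All 3 NICD1/Akt libraries of 2 weeks were higher still, since it then had 20.5, 23.6 and 44.1 CPM, against 10.2, 7.86 and 29.8 CPM in controls (log2FC 0.90 ± 0.56 SE, or 1.72 ± 0.40 SE without library 32). The Mmp2 difference between NICD1/Akt livers of 3 and 2 weeks was not called in the edgeR test (-0.74 ± 0.48 SE, adjusted p = 0.263, or -0.75 without library 32). Against all 6 control libraries the 3-week Mmp2 call was lost (adjusted p = 0.338), while it held against the 5 without library 32. Mmp12, the macrophage elastase, had 5.99, 7.92 and 2.66 CPM in NICD1/Akt livers of 3 weeks, against 0.173, 0.348 and 1.17 CPM in controls (log2FC 3.39 ± 0.61 SE, adjusted p = 0.00116). At 2 weeks it had 3.85, 2.89 and 5.35 CPM in NICD1/Akt livers, against 1.06, 1.15 and 2.16 CPM in controls (log2FC 1.48 ± 0.42 SE, or 1.87 ± 0.43 SE without library 32), so the 2 groups did not overlap, library 32 included. Mmp9, gelatinase B, which neutrophils store, had 2.31, 1.99 and 1.77 CPM in NICD1/Akt livers of 3 weeks, against 0.604, 0.609 and 0.167 CPM in controls (log2FC 2.25 ± 0.40 SE, adjusted p = 0.00107). At 2 weeks its values of 0.531, 0.296 and 2.01 CPM in NICD1/Akt livers and 0.666, 1.44 and 1.08 CPM in controls overlapped (log2FC -0.09 ± 0.75 SE, or -0.06 ± 0.90 SE without library 32). Mmp13, the main interstitial collagenase of rodents, stayed under 2 CPM throughout, at 0.72, 0.773 and 0.559 CPM in NICD1/Akt livers of 3 weeks, against 0, 0.0871 and 0.333 CPM in controls (log2FC 2.34 ± 0.67 SE, adjusted p = 0.013), and at 1.66, 0.666 and 0.669 CPM in NICD1/Akt livers of 2 weeks, against 0.2, 0.288 and 0.695 CPM in controls (log2FC 1.34 ± 0.67 SE, or 1.99 ± 0.74 SE without library 32). Its 3-week call was lost against all 6 controls (adjusted p = 0.132). Mmp7, matrilysin, known from biliary epithelium, had 0.341, 1.18 and 0.606 CPM in NICD1/Akt livers of 3 weeks, against 0.259, 0.174 and 0.333 CPM in controls. The groups all but touched, with 9 counts in library 1 and 4 in library 12. Mmp7 met the abundance rule only through NICD1/Akt libraries. At 2 weeks Mmp7 had 0.332, 0.148 and 0.708 CPM in NICD1/Akt livers, against 0, 0 and 0.154 CPM in controls, which is 25 counts against 2, both in library 32, a ratio of 9.69 (95% counting interval 2.42 to 84.4). Library 35 held 18 of the 25. Against libraries 30 and 31 alone Mmp7 was at least 4.46-fold higher, with the floor of 3 counts set over both. Exons of Mmp12 overlap Mmp1b on the opposite strand, and the strand setting of the counting is not given in the sources used here.

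Promoters are shown for 4 members picked from those that were higher in NICD1/Akt livers of 3 weeks and hold a motif. The motif was that of AP-1, a factor of many MMP promoters, or of RBPJ, the DNA-binding partner of NICD1. The RefSeq promoter table (GRCm38.p6) matched 36 of 53 members with 41 promoters of 300 bases, from 250 before to 50 after the start. The AP-1 letters TGANTCA, which read the same on either strand, were in 4 of 41 member promoters (Adam19, Mmp7, Mmp12 and Mmp13), or 9.76%, and in 7.81% of all 32851 promoters. The RBPJ letters TGGGAA, searched on both strands, were in 13 of 41, or 31.7%, and in 25.6% of all. They were in Adam8, Adam22, Adamts13, Adamts14, Adamtsl2, Adamtsl3, Adamtsl5, Mmp7, Mmp13, Mmp23, Mmp25, Mmp28 and Timp1, of which only Timp1 is shown for these letters. The TEAD letters GGAATG, which can overlap the RBPJ letters by 4 letters, were in 4 of 41, or 9.76%, and in 14.7% of all. A match describes letters and is no evidence of binding. Capitals mark the AP-1 letters in Mmp12 (chr9:7347124-7347423, plus strand), Mmp13 (chr9:7272264-7272563, plus strand) and Adam19 (chr11:46055734-46056033, plus strand), and the RBPJ letters in Timp1 (chrX:20869916-20870215, plus strand).
Mmp12: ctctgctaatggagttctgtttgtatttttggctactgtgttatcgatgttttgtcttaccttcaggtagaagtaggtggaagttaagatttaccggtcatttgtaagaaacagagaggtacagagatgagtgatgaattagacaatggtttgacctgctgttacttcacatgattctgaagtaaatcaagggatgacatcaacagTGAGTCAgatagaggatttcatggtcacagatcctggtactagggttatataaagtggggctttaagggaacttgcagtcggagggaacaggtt
Mmp13: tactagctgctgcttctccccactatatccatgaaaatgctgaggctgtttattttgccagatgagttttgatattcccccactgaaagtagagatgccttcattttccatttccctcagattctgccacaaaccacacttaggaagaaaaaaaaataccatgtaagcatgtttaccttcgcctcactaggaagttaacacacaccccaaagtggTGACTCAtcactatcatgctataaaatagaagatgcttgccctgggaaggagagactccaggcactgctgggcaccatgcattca
Adam19: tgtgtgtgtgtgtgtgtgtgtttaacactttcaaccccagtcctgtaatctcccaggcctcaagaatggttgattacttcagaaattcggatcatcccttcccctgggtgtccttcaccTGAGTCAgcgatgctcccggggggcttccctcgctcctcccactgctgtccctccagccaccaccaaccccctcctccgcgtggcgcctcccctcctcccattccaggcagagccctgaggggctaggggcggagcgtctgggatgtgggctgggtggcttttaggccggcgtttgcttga
Timp1: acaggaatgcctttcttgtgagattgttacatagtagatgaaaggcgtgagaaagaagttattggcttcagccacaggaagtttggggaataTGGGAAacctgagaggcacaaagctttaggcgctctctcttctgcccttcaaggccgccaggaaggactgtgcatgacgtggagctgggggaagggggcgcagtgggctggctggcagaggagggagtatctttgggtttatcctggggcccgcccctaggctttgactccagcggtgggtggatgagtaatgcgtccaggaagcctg
The AP-1 letters began 44 bases before the start in Mmp12, 35 in Mmp13 and 131 in Adam19, and the RBPJ letters of Timp1 began 158 bases before it. The RBPJ letters of Mmp13 and the TEAD letters of Adam19 and Timp1 were left in small letters. Adam19 had 3 promoters and Mmp12 had 2, and of each the 1 with the AP-1 letters is shown.

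Of the furin-activated and other secreted MMPs, 3 of 4 were higher at 3 weeks (38.9% of all genes) and Mmp19 was lower (33.1%). Among the 3, Mmp28 met the abundance rule only through NICD1/Akt libraries. Mmp19, a secreted MMP found in many healthy tissues, had 31.2, 34 and 31.3 CPM in NICD1/Akt livers of 3 weeks, against 86.9, 78.7 and 97.6 CPM in controls (log2FC -1.33 ± 0.10 SE, adjusted p = 1.18e-05). It was lower under each of 15 alternative fits. Its 2-week values were 73.5, 97.1 and 43 CPM in NICD1/Akt livers and 112, 96.6 and 60.1 CPM in controls (log2FC -0.33 ± 0.34 SE, or -0.56 ± 0.32 SE without library 32), with libraries 35 and 32 the lowest 2 of 6. Mmp11, stromelysin-3, had 1.82, 1.88 and 1.63 CPM in NICD1/Akt livers of 3 weeks, against 0.345, 0.174 and 0.5 CPM in controls (log2FC 2.47 ± 0.37 SE, adjusted p = 0.000423). Mmp23 had 5.04, 4.86 and 4.19 CPM in NICD1/Akt livers, against 0.604, 0.958 and 1.25 CPM in controls (log2FC 2.43 ± 0.28 SE, adjusted p = 8.81e-05). Mmp28, epilysin, had 1.93, 2.1 and 3.77 CPM in NICD1/Akt livers, against 0.0863, 0 and 0.25 CPM in controls (log2FC 4.53 ± 0.65 SE, adjusted p = 0.000311). At 2 weeks Mmp11 had 0.996, 1.11 and 2.24 CPM in NICD1/Akt livers, against 0.932, 1.08 and 1.7 CPM in controls. Mmp23 had 3.32, 1.78 and 6.57 CPM in NICD1/Akt livers of that stage, against 2.66, 3.61 and 5.33 CPM in controls. Mmp28 had 1.66, 0.666 and 1.02 CPM in NICD1/Akt livers, against 0.532, 1.3 and 0.772 CPM in controls. The groups of all 3 overlapped at 2 weeks, with log2FC of 0.26, 0.04 and 0.37, or 0.56, 0.35 and 0.30 without library 32. Against all 6 controls the 3-week calls of Mmp11 (adjusted p = 0.109) and Mmp23 (adjusted p = 0.198) were lost. Mmp11 exons overlap Chchd10, Mmp19 exons Tmem198b and Mmp28 exons 1700020L24Rik, all on the opposite strand.

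The membrane-type MMPs held 3 tested members at 3 weeks, all higher (38.9% of all genes). Mmp14 (MT1-MMP), which activates pro-MMP2 at the cell surface, had 120, 116 and 104 CPM in NICD1/Akt livers of 3 weeks, against 35.6, 42 and 38.2 CPM in controls (log2FC 1.67 ± 0.10 SE, adjusted p = 3.34e-06). At 2 weeks its values of 80.2, 57.2 and 109 CPM in NICD1/Akt livers and 65.6, 60.5 and 61.6 CPM in controls overlapped (log2FC 0.40 ± 0.24 SE, or 0.39 ± 0.29 SE without library 32). Mmp15 (MT2-MMP) had 116, 98.5 and 127 CPM in NICD1/Akt livers of 3 weeks, against 54.3, 56.8 and 53.8 CPM in controls (log2FC 1.17 ± 0.11 SE, adjusted p = 3.39e-05). At 2 weeks it had 53.2, 54.6 and 80.6 CPM in NICD1/Akt livers, against 53.6, 57.2 and 89.1 CPM in controls, with library 32 the highest of the 6 (log2FC -0.07 ± 0.26 SE, or 0.19 ± 0.23 SE without library 32). Mmp17, a glycolipid-anchored member, had 5.68, 6.63 and 5.64 CPM in NICD1/Akt livers of 3 weeks, against 0.518, 1.22 and 1.08 CPM in controls (log2FC 2.78 ± 0.28 SE, adjusted p = 5.04e-05). Its groups overlapped at 2 weeks, with 3.39, 2.07 and 2.75 CPM in NICD1/Akt livers and 1.26, 2.6 and 2.7 CPM in controls (log2FC 0.33 ± 0.40 SE, or 0.51 ± 0.46 SE without library 32). Mmp24 and Mmp25 were too low for the test. Mmp25 had 33 counts over the NICD1/Akt libraries at 3 weeks, 1 library of which held nearly none at 0.0466 CPM, against 0 over the controls, at least 5.14-fold higher with the control group at that floor of 3 counts. At 2 weeks Mmp25 had 0.465, 0.222 and 1.26 CPM in NICD1/Akt livers, against 0.266, 0.288 and 0.541 CPM in controls, which overlapped.

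The ADAMs divided. Of 13 tested at 3 weeks, 7 were higher (38.9% of all genes) and 2 lower (33.1%), with a median log2FC of 0.26. Adam22, 1 of the 7, met the abundance rule only through NICD1/Akt libraries. Adam10 had 63.8, 69 and 62.9 CPM in NICD1/Akt livers of 3 weeks, against 39.7, 39.9 and 41.3 CPM in controls (log2FC 0.82 ± 0.08 SE, adjusted p = 4.68e-05), a small change with little spread. Adam10 at 2 weeks had 48.9, 51.8 and 56.9 CPM in NICD1/Akt livers, against 40.5, 40.3 and 44.5 CPM in controls (log2FC 0.34 ± 0.11 SE, or 0.39 ± 0.14 SE without library 32), and again the groups did not overlap. Adam17, the TNF-converting enzyme, had 47.9, 54.4 and 52.5 CPM in NICD1/Akt livers of 3 weeks, against 49, 41.7 and 49.7 CPM in controls (log2FC 0.26 ± 0.10 SE, adjusted p = 0.0438), which overlapped. The Adam17 call was lost in 11 of 15 alternative fits, and its exons overlap Iah1 on the opposite strand. Its groups did not overlap at 2 weeks, with 37.2, 38.9 and 43.7 CPM in NICD1/Akt livers and 29, 30.9 and 33.1 CPM in controls (log2FC 0.37 ± 0.12 SE, or 0.42 ± 0.15 SE without library 32).

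Among the other ADAMs, the largest changes at 3 weeks were in Adam19, Adam8 and Adam12. Adam19 (meltrin beta) had 13.8, 15.1 and 13 CPM in NICD1/Akt livers of 3 weeks, against 1.55, 0.871 and 3.08 CPM in controls (log2FC 3.04 ± 0.32 SE, adjusted p = 6.14e-05). Adam8, a leukocyte sheddase, had 6.78, 7 and 4.29 CPM in NICD1/Akt livers, against 1.12, 0.435 and 1.67 CPM in controls (log2FC 2.59 ± 0.39 SE, adjusted p = 0.000421). Adam12 (meltrin alpha) had 5.99, 5.56 and 3.96 CPM in NICD1/Akt livers, against 0.863, 1.04 and 1.33 CPM in controls (log2FC 2.37 ± 0.28 SE, adjusted p = 0.000104). None of the 3 was separated from its controls by every library at 2 weeks. Adam19 had 3.45, 5.7 and 10.1 CPM in NICD1/Akt livers at that stage, against 3.06, 2.88 and 4.25 CPM in controls (log2FC 0.93 ± 0.43 SE, or 1.13 ± 0.51 SE without library 32). Adam8 had 2.72, 1.48 and 4.45 CPM in NICD1/Akt livers, against 1.13, 0.433 and 2.01 CPM in controls (log2FC 1.30 ± 0.64 SE, or 1.90 ± 0.69 SE without library 32). Adam12 had 1.73, 1.41 and 4.49 CPM in NICD1/Akt livers, against 2.13, 0.865 and 1.24 CPM in controls (log2FC 0.87 ± 0.58 SE, or 0.80 ± 0.70 SE without library 32). Adam15 (metargidin) had 19.4, 21 and 19.1 CPM in NICD1/Akt livers of 3 weeks, against 5.35, 5.48 and 6 CPM in controls (log2FC 1.94 ± 0.12 SE, adjusted p = 3.14e-06), and its NICD1/Akt libraries also lay above all controls at 2 weeks, with 14.3, 12.3 and 19.9 CPM against 7.99, 10.2 and 11.7 CPM (log2FC 0.65 ± 0.25 SE, or 0.79 ± 0.28 SE without library 32).

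Adam9 (meltrin gamma), a widely expressed sheddase, was the family transcript highest per kilobase in control livers at 3 weeks. It had 79.7, 73.3 and 75.3 CPM in NICD1/Akt livers of 3 weeks, against 183, 146 and 181 CPM in controls (log2FC -1.04 ± 0.12 SE, adjusted p = 7.99e-05). At 2 weeks it had 92.7, 109 and 69.7 CPM in NICD1/Akt livers, against 89.4, 88.2 and 87.5 CPM in controls (log2FC 0.04 ± 0.17 SE, or 0.03 ± 0.20 SE without library 32), so the 3-week controls stood apart from the 2-week controls as well. Against the 5 control libraries of both stages without 32, the Adam9 log2FC at 3 weeks was -0.72 and the call was lost. Adam23, a member without protease activity that binds LGI proteins in neurons, had 13.6, 15.1 and 17.6 CPM in NICD1/Akt livers of 3 weeks, against 31.1, 29.1 and 31.1 CPM in controls (log2FC -0.86 ± 0.11 SE, adjusted p = 0.000206). With library size as the only scaling its log2FC was -0.15 and the call was lost. At 2 weeks Adam23 had 33.3, 35.7 and 12.9 CPM in NICD1/Akt livers, against 26.2, 18.9 and 18.7 CPM in controls, with NICD1/Akt library 35 the lowest of 6 (log2FC 0.36 ± 0.38 SE, or 0.26 ± 0.43 SE without library 32). Its relative Adam22 had 0.606, 0.479 and 0.512 CPM in NICD1/Akt livers of 3 weeks, against 0.0863, 0.174 and 0.333 CPM in controls (log2FC 1.50 ± 0.51 SE, adjusted p = 0.0266), and kept its call in 7 of 14 alternative fits. At 2 weeks Adam22 had 0.863, 0.518 and 0.197 CPM in NICD1/Akt livers, against 0.333, 0.216 and 0.772 CPM in controls, which overlapped. Adam1a, Adam4, Adam11 and Adam33 did not pass the test, with log2FC of -0.48, -0.91, -0.05 and -0.29. Exons of Adam1a overlap Mapkapk5 on the same strand, so its counts are uncertain.

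All 6 ADAMTS proteoglycanases, which cut aggrecan, versican and related molecules, were higher at 3 weeks (38.9% of all genes), with a median log2FC of 3.16. Adamts8, 1 of the 6, met the abundance rule only through NICD1/Akt libraries. Adamts1 had 334, 397 and 309 CPM in NICD1/Akt livers of 3 weeks, against 43.5, 24.9 and 47.1 CPM in controls (log2FC 3.29 ± 0.24 SE, adjusted p = 8.2e-06). Adamts1 at 2 weeks had 62.2, 73.1 and 246 CPM in NICD1/Akt livers, against 19.2, 16.4 and 86.9 CPM in controls, with library 32 above NICD1/Akt libraries 33 and 34 (log2FC 1.66 ± 0.83 SE, or 2.87 ± 0.71 SE without library 32). Adamts9, which also cuts versican, had 66.9, 85.6 and 75.3 CPM in NICD1/Akt livers of 3 weeks, against 9.75, 17.5 and 11.1 CPM in controls (log2FC 2.69 ± 0.21 SE, adjusted p = 1.02e-05). Adamts9 at 2 weeks had 24.3, 21.2 and 58 CPM in NICD1/Akt livers, against 7.45, 7.14 and 21.9 CPM in controls (log2FC 1.53 ± 0.58 SE, or 2.27 ± 0.52 SE without library 32), with library 32 just above NICD1/Akt library 34. Adamts5, the main aggrecanase of mouse cartilage, had 25.4, 20.3 and 18.9 CPM in NICD1/Akt livers of 3 weeks, against 1.64, 3.13 and 2.58 CPM in controls (log2FC 3.25 ± 0.22 SE, adjusted p = 5.68e-06). Its 2-week values were 6.91, 10.9 and 18.6 CPM in NICD1/Akt livers and 6.39, 6.34 and 11.3 CPM in controls, which overlapped through library 32 (log2FC 0.62 ± 0.42 SE, or 0.95 ± 0.45 SE without library 32). Adamts15 had 7.27, 6.85 and 7.92 CPM in NICD1/Akt livers of 3 weeks, against 0.776, 1.39 and 0.667 CPM in controls (log2FC 3.07 ± 0.27 SE, adjusted p = 2.04e-05), and 5.38, 3.33 and 4.05 CPM in NICD1/Akt livers of 2 weeks, against 3.46, 2.96 and 3.94 CPM in controls (log2FC 0.31 ± 0.28 SE, or 0.41 ± 0.33 SE without library 32). Its NICD1/Akt groups and 2-week controls thus all exceeded the 3-week controls. Adamts4 had 12.2, 13.6 and 7.5 CPM in NICD1/Akt livers of 3 weeks, against 4.74, 4.18 and 4.58 CPM in controls (log2FC 1.42 ± 0.24 SE, adjusted p = 0.000777), and 2.19, 1.55 and 5.39 CPM in NICD1/Akt livers of 2 weeks, against 0.666, 1.3 and 2.86 CPM in controls (log2FC 0.95 ± 0.68 SE, or 1.67 ± 0.71 SE without library 32). Adamts8 had 1.02, 1.14 and 1.35 CPM in NICD1/Akt livers of 3 weeks, against 0, 0.0871 and 0 CPM in controls, which is 87 counts against 1, a ratio of 40.7 (95% counting interval 7.11 to 1625). At 2 weeks Adamts8 had 0.332, 0.222 and 1.14 CPM in NICD1/Akt livers, against 0.2, 0 and 0 CPM in controls, with all 3 control counts in library 30. This is 37 counts against 3, a ratio of 9.56 (3.03 to 48.5), or 6.6 (2.09 to 33.5) without library 32. Library 35 held 29 of the 37.

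The procollagen N-proteinases, which remove the amino-terminal propeptide of fibrillar procollagens, were all 3 higher at 3 weeks (38.9% of all genes). Adamts3, 1 of the 3, met the abundance rule only through NICD1/Akt libraries. Adamts2 had 61.5, 62.7 and 48 CPM in NICD1/Akt livers of 3 weeks, against 4.49, 5.4 and 9.09 CPM in controls (log2FC 3.30 ± 0.24 SE, adjusted p = 6.98e-06). At 2 weeks it had 38.6, 34.3 and 72.6 CPM in NICD1/Akt livers, against 17.7, 16.1 and 43.8 CPM in controls (log2FC 0.92 ± 0.47 SE, or 1.54 ± 0.38 SE without library 32), and both 2-week groups were above the 3-week controls. Adamts14 had 6.18, 6.96 and 4.05 CPM in NICD1/Akt livers of 3 weeks, against 2.76, 4.44 and 3.67 CPM in controls (log2FC 0.79 ± 0.27 SE, adjusted p = 0.0261), which overlapped, and its call was lost in 6 of 15 alternative fits. At 2 weeks Adamts14 had 10.2, 6.51 and 7.36 CPM in NICD1/Akt livers, against 3.46, 3.82 and 6.49 CPM in controls (log2FC 0.81 ± 0.32 SE, or 1.14 ± 0.29 SE without library 32), with no overlap. Adamts3 stayed under 2 CPM, at 0.985, 1.8 and 0.745 CPM in NICD1/Akt livers of 3 weeks, against 0.345, 0 and 0.417 CPM in controls (log2FC 2.31 ± 0.69 SE, adjusted p = 0.0149), and at 0.863, 0.962 and 1.14 CPM in NICD1/Akt livers of 2 weeks, against 0.532, 0.649 and 0.0772 CPM in controls (log2FC 1.22 ± 0.66 SE, or 0.75 ± 0.50 SE without library 32).

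Of the 6 other ADAMTS proteases, 5 were higher at 3 weeks (38.9% of all genes) and Adamts13 was not called. Adamts17, 1 of the 5, met the abundance rule only through NICD1/Akt libraries. Adamts12, which cuts cartilage oligomeric matrix protein, had 11.9, 16.3 and 11.3 CPM in NICD1/Akt livers of 3 weeks, against 0.604, 0.435 and 0.917 CPM in controls (log2FC 4.43 ± 0.29 SE, adjusted p = 4.11e-06). Adamts12 at 2 weeks had 4.91, 2.89 and 12.2 CPM in NICD1/Akt livers, against 1.13, 1.73 and 5.64 CPM in controls (log2FC 1.26 ± 0.76 SE, or 2.25 ± 0.72 SE without library 32), with library 32 within the NICD1/Akt range. Adamts6 had 11, 16.3 and 15.8 CPM in NICD1/Akt livers of 3 weeks, against 0.604, 1.13 and 0.417 CPM in controls (log2FC 4.44 ± 0.31 SE, adjusted p = 6.59e-06), and 6.84, 6.29 and 13.9 CPM in NICD1/Akt livers of 2 weeks, against 4.86, 4.04 and 4.87 CPM in controls (log2FC 0.99 ± 0.35 SE, or 1.04 ± 0.44 SE without library 32). The Adamts6 groups did not overlap at either stage. Adamts10, which acts on fibrillin microfibrils, had 22.5, 16.8 and 19.5 CPM in NICD1/Akt livers of 3 weeks, against 4.4, 6.53 and 7.09 CPM in controls (log2FC 1.83 ± 0.19 SE, adjusted p = 6.27e-05), a call lost against all 6 controls (adjusted p = 0.139). At 2 weeks Adamts10 had 15.7, 20.4 and 29.8 CPM in NICD1/Akt livers, against 13.7, 14.3 and 20.7 CPM in controls (log2FC 0.45 ± 0.28 SE, or 0.67 ± 0.30 SE without library 32). Adamts7, whose exons overlap Tbc1d2b on the opposite strand, had a log2FC of 1.09 ± 0.16 SE at 3 weeks. Adamts17 had 76 counts over the NICD1/Akt libraries of 3 weeks, against 3 over the controls, a ratio of 11.8 (95% counting interval 3.9 to 58.7). At 2 weeks Adamts17 had 0, 0.074 and 0.511 CPM in NICD1/Akt livers, against 0.399, 0.577 and 0.0772 CPM in controls, which overlapped. Adamts13, the von Willebrand factor protease made by stellate cells, had 16.1, 10.4 and 9.5 CPM in NICD1/Akt livers of 3 weeks, against 16.8, 13.7 and 18.9 CPM in controls (log2FC -0.33 ± 0.22 SE, adjusted p = 0.197), and 9.96, 8.06 and 3.19 CPM in NICD1/Akt livers of 2 weeks, against 11.8, 10.9 and 8.03 CPM in controls (log2FC -0.54 ± 0.41 SE, or -0.70 ± 0.45 SE without library 32), with overlap at both stages. Its substrate gene Vwf had 46.1 to 71.9 CPM in NICD1/Akt livers of 3 weeks, against 10.4 to 12.7 CPM in controls (log2FC 2.48 ± 0.17 SE, adjusted p = 6.18e-06).

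All 5 ADAMTS-like genes were higher at 3 weeks (38.9% of all genes), with a median log2FC of 2.70. Adamtsl3, 1 of the 5, met the abundance rule only through NICD1/Akt libraries. Adamtsl1 had 34.2, 34.4 and 26.9 CPM in NICD1/Akt livers of 3 weeks, against 0.69, 1.04 and 1.67 CPM in controls (log2FC 4.92 ± 0.24 SE, adjusted p = 1.06e-06). Adamtsl1 at 2 weeks had 4.85, 5.7 and 15.2 CPM in NICD1/Akt livers, against 2.06, 2.96 and 7.8 CPM in controls (log2FC 1.03 ± 0.65 SE, or 1.81 ± 0.62 SE without library 32), with library 32 above NICD1/Akt libraries 33 and 34. Adamtsl2, whose protein binds fibrillin-1 and LTBP1 and is mutated in geleophysic dysplasia, had 71.7, 59.2 and 67.6 CPM in NICD1/Akt livers of 3 weeks, against 12.6, 15.2 and 23.3 CPM in controls (log2FC 2.07 ± 0.21 SE, adjusted p = 4.4e-05). Adamtsl2 at 2 weeks had 58.1, 58.1 and 92.7 CPM in NICD1/Akt livers, against 33, 23.5 and 75.1 CPM in controls (log2FC 0.68 ± 0.45 SE, or 1.31 ± 0.30 SE without library 32), and its 3-week call was lost against all 6 controls (adjusted p = 0.084). Adamtsl4 had 15.5, 19.7 and 11.9 CPM in NICD1/Akt livers of 3 weeks, against 2.67, 2.09 and 3.08 CPM in controls (log2FC 2.70 ± 0.24 SE, adjusted p = 2.5e-05), and 10.6, 8.8 and 12.4 CPM in NICD1/Akt livers of 2 weeks, against 6.86, 11.4 and 8.73 CPM in controls (log2FC 0.25 ± 0.24 SE, or 0.23 ± 0.30 SE without library 32). Adamtsl5, under 2 CPM in every library, had a log2FC of 1.75 ± 0.37 SE that was not called against 5 or 6 controls. Adamtsl3 had 0.871, 1.55 and 0.932 CPM in NICD1/Akt livers of 3 weeks, against 0, 0.174 and 0 CPM in controls, which is 85 counts against 2, a ratio of 19.9 (95% counting interval 5.33 to 167). At 2 weeks Adamtsl3 had 0.398, 0.962 and 1.46 CPM in NICD1/Akt livers, against 0.266, 0.144 and 0.541 CPM in controls, which overlapped through library 32. With library 32 it was too low for the test, and without library 32 its log2FC was 2.19 ± 0.83 SE.

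At 2 weeks no member and no gene passed the adjusted threshold in edgeR's quasi-likelihood test (0.0% of 13041 genes tested). The likelihood ratio test of edgeR called 7 genes higher and 5 lower, and DESeq2 called 13 and 14, with 0 members in either. Without library 32 the quasi-likelihood test again called 0 members, whereas DESeq2, an alternative added after seeing the data, called 10 members higher (5.85% of all genes) and 0 lower (1.1%). These 10 were Timp1, Timp3, Mmp2, Mmp12, Adamts1, Adamts2, Adamts9, Adamts12, Adamts14 and Adamtsl2. The smallest adjusted p of a member was 0.52, or 0.195 without library 32. Of 43 members tested, 38 had a positive log2FC, with a median of 0.61, against 0.01 for all genes; at an unadjusted p under 0.05, 8 members were higher (4.9% of all genes) and 0 lower. Of the 39 that also passed in controls, 34 had a positive log2FC, with a median of 0.45, and the same 8 and 0 were counted. Without library 32 the median was 0.80, and 19 of 45 members were higher at that level (12.3% of all genes) and 0 lower, while of the 39 the median was 0.79 and 17 were higher. Every NICD1/Akt library lay above every control library for 7 members (7.55% of all genes), or 6 of the 39. Libraries 32 and 35 stood apart within their groups. Library 32 was above libraries 30 and 31 for 30 of 43 members, or 69.8%, against 41.3% of 13200 genes with at least 60 counts, and library 35 was the highest of the 6 for 30 members, or 69.8%, against 31.6% of those genes. Without library 32, the NICD1/Akt libraries were all above libraries 30 and 31 for 25 members, or 58.1%, against 23.8% of those genes. Of the 39 that also passed in controls, 71.8% had library 32 above libraries 30 and 31, 74.4% had library 35 the highest, and 59.0% had libraries 33 to 35 all above 30 and 31.

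**Figure D3:**
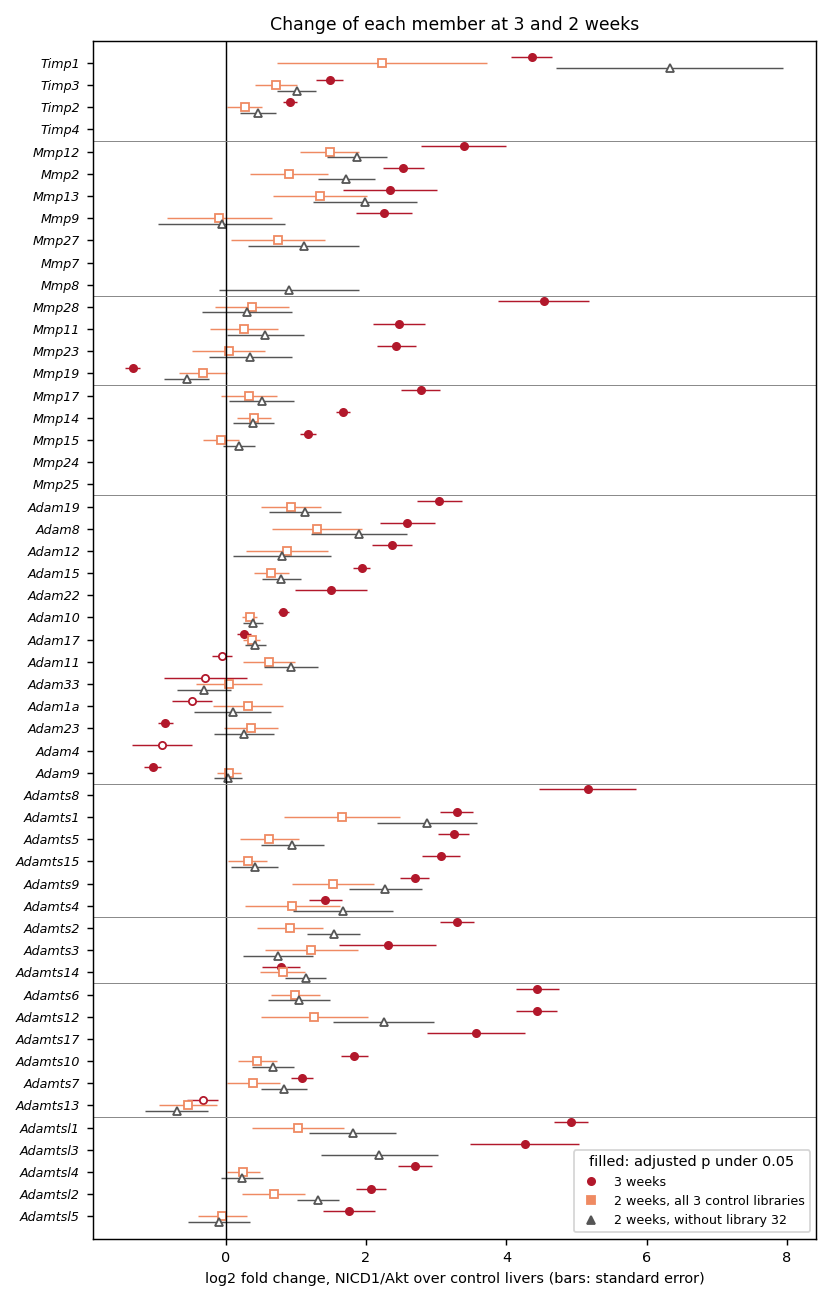
Log2FC of each member (x axis) with its standard error, for 3 weeks (circles), 2 weeks (squares) and 2 weeks without library 32 (triangles); filled symbols had an adjusted p under 0.05. The filled 3-week symbols lie right of 0 except those of Mmp19, Adam9 and Adam23, no 2-week symbol is filled in these edgeR fits, and members with no symbol were too low for the test; the fitted value of Adamts8 at 3 weeks and of Timp1 without library 32 rest on 1 and 2 control counts.

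A further fit, chosen after seeing the data, set each NICD1/Akt group against the 5 control libraries of both stages other than 32. At 3 weeks 37 of 47 members were higher (30.4% of all genes) and 2 lower (21.4%), those 2 being Mmp19 and Adam23. At 2 weeks 12 of 41 members were higher (6.68% of all genes) and 0 lower (1.29%). The 12 were Mmp2, Mmp12, Timp3, Adam10, Adam15, Adamts1, Adamts2, Adamts9, Adamts12, Adamts14, Adamtsl1 and Adamtsl2. The controls of this fit differ from the NICD1/Akt livers in stage as well.

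The effect of NICD1/Akt differed between 3 and 2 weeks for 20 of 53 members, larger at 3 weeks for 18 (15.0% of all genes) and smaller or negative for 2, Adam9 and Adam23 (15.8%). Among the 41 that also passed in controls these counts were 17 and 2. Without library 32 the counts were 13 (10.1%) and 1, Adam9 (10.9%), and the total of 20 became 10 without NICD1/Akt library 33, 11 without control library 10 and 29 without NICD1/Akt library 35. With library size as the only scaling the split was 18 and 1, and it was 3520 and 297 for all genes, against 2078 and 2180. The difference for Adamts15 was 2.65 ± 0.40 SE, adjusted p = 0.00223, or 2.57 without library 32, adjusted p = 0.00444. That of Adamtsl1 was 3.76 ± 0.80 SE, adjusted p = 0.00933, or 3.00 without library 32, adjusted p = 0.0177. Mmp14 had a smaller one of 1.16 ± 0.26 SE, adjusted p = 0.0121, or 1.18 without library 32, adjusted p = 0.0221. Timp1, Mmp2, Mmp12 and Adamts1 were not among the 20.

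Each arm of that difference was also compared between stages. Adamts2, among the 20 above, was not called in NICD1/Akt livers (0.24 ± 0.40 SE, adjusted p = 0.669, or 0.23 without library 32). Between the controls it was lower at 3 weeks (-2.03 ± 0.44 SE, adjusted p = 0.00499, or -1.43 without library 32). Mmp15, also among them, was not called between the controls (-0.28 ± 0.21 SE, adjusted p = 0.315, or -0.03 without library 32). In NICD1/Akt livers 9 members were higher at 3 than at 2 weeks (11.1% of all genes) and 2 lower (17.4%), namely Mmp19 and Adam33, or 11 and 2 without library 32; all 9 and both were among the 41 that also passed in controls. The count of 11 ranged from 0 without NICD1/Akt library 34 to 27 without library 35, and was 5, 2, 7 and 3 without libraries 1, 2, 3 and 33. Adamts4, which was not among the 20 above, had a log2 difference of 1.83 ± 0.50 SE, adjusted p = 0.0212, or 1.81 without library 32, adjusted p = 0.0103. Mmp15 differed by 0.86 ± 0.21 SE, adjusted p = 0.0134, or 0.85 without library 32, adjusted p = 0.00464. In control livers 4 members were higher at 3 than at 2 weeks (17.4% of all genes) and 17 lower (20.4%), or 4 and 14 without library 32, and 4 and 16 among those 41. Adamts6 differed between the controls by -2.67 ± 0.42 SE, adjusted p = 0.000727, or -2.65 without library 32, adjusted p = 0.00209. Mmp2, which was not among the 20 above, differed by -2.26 ± 0.55 SE, adjusted p = 0.00829, or -1.46 without library 32, adjusted p = 0.0232. In the other direction, Adam9 differed by 0.94 ± 0.15 SE, adjusted p = 0.000915, or 0.92 without library 32, adjusted p = 0.00309. With library size as the only scaling, 14 members were higher and 1 lower in NICD1/Akt livers, beside 3435 and 940 of all genes, and 2 were higher and 16 lower in controls, beside 1285 and 3058 of all genes. The stages were deposited as separate tables, and stage, sex and any difference in handling cannot be told apart.

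Genes that act on the family were taken as lists. Of 14 activators and other inhibitors, 7 were higher at 3 weeks (38.9% of all genes) and 4 lower (33.1%), with a median log2FC of 0.08. Plat, the tissue plasminogen activator, had 20.8 to 25.2 CPM in NICD1/Akt livers, against 0.522 to 1.33 CPM in controls (log2FC 4.87 ± 0.26 SE, adjusted p = 1.56e-06). Plau, the urokinase, had 8.53 to 9.5 CPM in NICD1/Akt livers, against 0.167 to 0.435 CPM in controls (log2FC 4.81 ± 0.28 SE, adjusted p = 2.35e-06). Serpine2, an inhibitor of both, had 70.5 to 84.2 CPM in NICD1/Akt livers, against 10.3 to 13.7 CPM in controls (log2FC 2.74 ± 0.13 SE, adjusted p = 9.49e-07). The 4 lower genes were Plg, which encodes plasminogen, the proprotein convertases Furin and Pcsk6, and Tfpi2, an inhibitor of plasmin and other serine proteases. No gene of the list was called at 2 weeks, with or without library 32.

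All 8 tested partners of ADAM10 and ADAM17 were higher at 3 weeks (38.9% of all genes), with a median log2FC of 1.31. Tspan15, a tetraspanin that carries ADAM10, had 10 to 12.5 CPM in NICD1/Akt livers, against 2.52 to 3.28 CPM in controls (log2FC 2.09 ± 0.18 SE, adjusted p = 1.8e-05). Tspan17, another carrier, had 6.06 to 7.33 CPM in NICD1/Akt livers, against 0.69 to 1.31 CPM in controls (log2FC 2.76 ± 0.25 SE, adjusted p = 2.86e-05). Rhbdf2 (iRhom2), needed for ADAM17 maturation, had 40.5 to 57.5 CPM in NICD1/Akt livers, against 18.6 to 22.5 CPM in controls (log2FC 1.31 ± 0.15 SE, adjusted p = 7.98e-05). Of 18 substrates that ADAM10 or ADAM17 shed, 9 were higher (38.9% of all genes) and 6 lower (33.1%). Cx3cl1, a membrane-bound chemokine, had 19.5 to 27.8 CPM in NICD1/Akt livers, against 0.518 to 1.22 CPM in controls (log2FC 4.91 ± 0.26 SE, adjusted p = 1.54e-06). Tnf had 9.05 to 13.8 CPM in NICD1/Akt livers, against 0.173 to 0.609 CPM in controls (log2FC 4.89 ± 0.34 SE, adjusted p = 6.32e-06), and Cxcl16 had 50.8 to 86.6 CPM, against 6.62 to 8.5 CPM in controls (log2FC 3.21 ± 0.22 SE, adjusted p = 5.05e-06). The 6 lower substrates were the ligands Hbegf and Btc and the receptors Tnfrsf1a, Tnfrsf1b, Il6ra and Mertk. Messenger levels say nothing of shedding.

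A further list held genes of proteoglycans, microfibril proteins, elastin and von Willebrand factor. Its 7 tested genes were all higher at 3 weeks (38.9% of all genes), with a median log2FC of 5.54, and Acan and Bcan were too low for the test. Eln, which encodes elastin, had 155 to 190 CPM in NICD1/Akt livers, against 2 to 2.17 CPM in controls (log2FC 6.49 ± 0.14 SE, adjusted p = 1.85e-07). Vcan, which encodes versican, had 47.9 to 59.1 CPM in NICD1/Akt livers, against 0.696 to 1.25 CPM in controls (log2FC 5.75 ± 0.19 SE, adjusted p = 2.09e-07). Fbn1, which encodes fibrillin-1, had 119 to 152 CPM in NICD1/Akt livers, against 3.54 to 6.92 CPM in controls (log2FC 4.84 ± 0.22 SE, adjusted p = 7.88e-07). At 2 weeks their median was 1.39, or 2.86 without library 32, with no gene called, and 5 of the 7 were lower in 3-week than in 2-week controls. In the astacin family only Bmp1, the procollagen C-proteinase, was tested, and it had 85.5 to 120 CPM in NICD1/Akt livers, against 160 to 166 CPM in controls (log2FC -0.48 ± 0.14 SE, adjusted p = 0.012).

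Markers of several cell types also differed between NICD1/Akt and control livers at 3 weeks. Over all genes tested at 3 weeks, 38.9% were higher and 33.1% lower. The 6 biliary markers summed to 3372 to 3960 CPM in NICD1/Akt livers of 3 weeks, against 73.3 to 116 CPM in controls, and all 5 tested were higher, Cldn4 being too low. At 2 weeks they summed to 1139, 1317 and 4595 CPM in libraries 33, 34 and 35, against 68.1, 66.2 and 1982 CPM in libraries 30, 31 and 32. In the NICD1/Akt livers most of the biliary sum was Spp1. It had 3027, 3545 and 3088 CPM in libraries 1, 2 and 3, and 1054, 1236 and 4256 CPM in libraries 33, 34 and 35. In library 32 the sum was mostly the 1875 CPM of Spp1 already given, so it is no separate sign for that library. The 8 stellate cell and fibroblast markers summed to 2064 to 2735 CPM in NICD1/Akt livers of 3 weeks, against 283 to 370 CPM in controls, with 5 higher and 0 lower. Lrat and Reln of quiescent stellate cells were not called, at log2FC of -0.01 and -0.21, while Col1a1 had 876 to 1293 CPM, against 8.28 to 20.3 CPM in controls. At 2 weeks these markers summed to 1139, 941 and 2846 CPM in NICD1/Akt livers, against 580, 575 and 1422 CPM in controls. All 7 macrophage markers were higher at 3 weeks, at a sum of 143 to 174 CPM, against 60.2 to 84.3 CPM in controls, and all 5 Kupffer cell markers were lower, at 94.7 to 114 CPM, against 189 to 262 CPM. The 6 hepatocyte markers were all lower, at 23530 to 35058 CPM, against 98445 to 102970 CPM. Neutrophil markers summed to 12.2 to 19.2 CPM in NICD1/Akt livers, against 7.85 to 9.14 CPM in controls, with 1 of 4 tested higher and Ly6g, Mpo and Elane at or near 0. Endothelial markers, which include the Vwf given above, summed to 238 to 283 CPM, against 234 to 276 CPM in controls. Of these markers 2 were higher, Vwf among them, and 1 was lower. Lymphocyte markers stayed under 6 CPM. At 2 weeks the macrophage markers summed to 208, 169 and 165 CPM in NICD1/Akt livers and 146, 178 and 150 CPM in controls, which overlapped. Of the 7 macrophage markers, 5 were lower in 3-week than in 2-week controls (20.4% of all genes). The part of all these cell types in the change of the members was not tested.

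**Figure D4:**
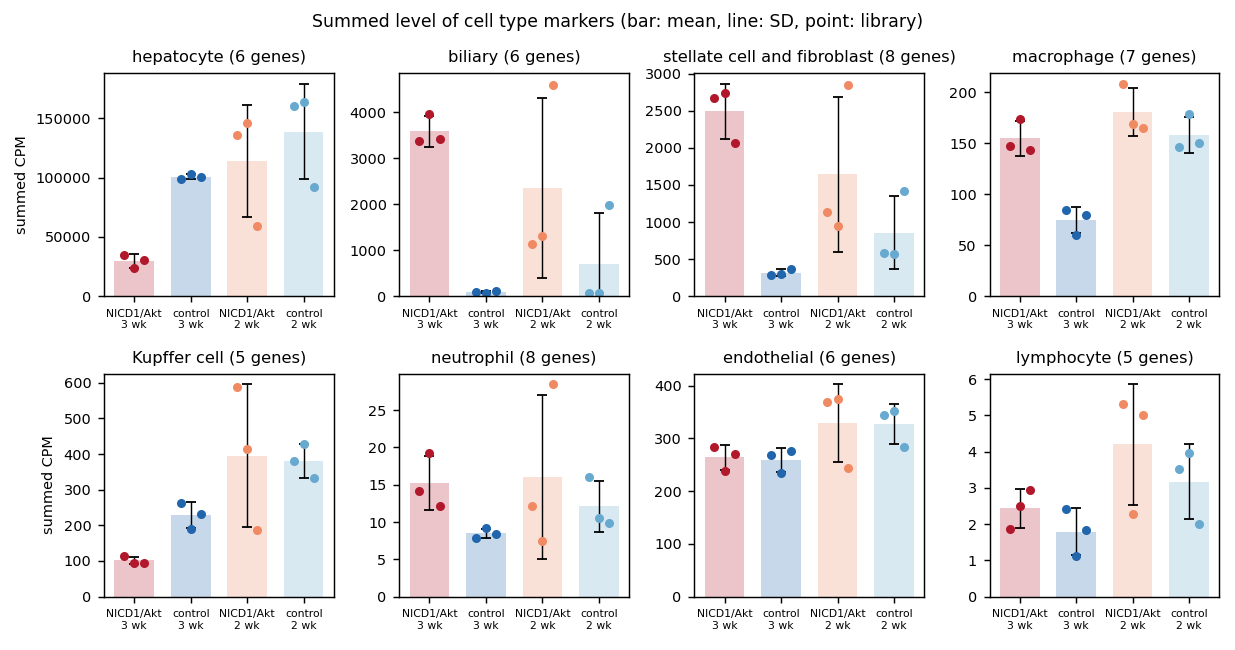
Summed CPM (linear axes from 0) of the markers of 8 cell types in each library, with points for libraries, bars for group means and lines for the SD of 3. Biliary and stellate cell markers are higher, and hepatocyte and Kupffer cell markers lower, in NICD1/Akt than in control livers at 3 weeks. Libraries 35 and 32 are the highest biliary points of their groups at 2 weeks, mostly through Spp1.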

How the data were processed

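RNA sequencing of mouse liver was analysed from 12 libraries in 4 groups of 3. The authors deposited raw counts per gene in 1 table per stage. Per the labels, libraries came from the Illumina Stranded mRNA kit, and the submitters' processing notes name STAR 2.7, Subread 2.0.6 and GRCm39, whereas the study's methods name mm10 and HTSeq. This conflict could not be settled, so no coordinates are given except those of the RefSeq promoter table, GRCm38.p6.

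Each column was matched to a sample by its title. Genes were tested with edgeR 4.0.16 (R 4.3.3, limma 3.58.1): filterByExpr, TMM factors and the quasi-likelihood test, within a stage for each NICD1/Akt against control comparison, and over 12 libraries for the stages, with Benjamini-Hochberg adjustment over all genes and a threshold of 0.05. Printed CPM values, and statements on overlap for single genes, use TMM factors over 12 libraries. Counts of genes with every NICD1/Akt library above or below every control library use TMM factors within the stage. The 2 scalings can differ where groups nearly touch. SE is the standard error of a log2 fold change. Ratios of low counts carry 95% exact counting intervals and a floor of 3 counts, which cover counting error only. DESeq2 1.42.0, other scalings, filters, controls and left-out libraries were the alternatives. The fits were tested on simulated data. No 2 libraries of a group agreed within sampling noise.

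The members, gene lists and markers were chosen with earlier results of these data known. Values in every library are given for TIMPs, for a list of well-known members and, in each family, for up to 3 further members in each direction with the smallest adjusted p at 3 weeks, and likewise, at 3 weeks, for up to 3 genes of each related list. Other members are named with 1 value or a count. 1 gene is not reported here. Exon overlaps were read from the reference annotation, and no protein sequences were used here.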

Additional observations from a re-analysis of the deposited data

Results flagged for a closer look

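The effect of NICD1/Akt differed between 3 and 2 weeks for 20 members (interaction term of edgeR's quasi-likelihood fit over 12 libraries, adjusted p from 0.00223 to 0.0443). For 13 of them the difference passed the test with and without library 32. Among the ADAMTS proteases the log2 difference, 3-week effect minus 2-week effect, was 2.65 for Adamts15, 3.33 for Adamts6, 2.52 for Adamts5 and 2.27 for Adamts2. Among the ADAMTS-like genes it was 3.76 for Adamtsl1, 2.34 for Adamtsl4 and 1.68 for Adamtsl5. Among the MMPs it was 4.06 for Mmp28, 2.33 for Mmp17, 1.16 for Mmp14 and 1.13 for Mmp15. Of the ADAMs, Adam15 had 1.18 and Adam9 had -1.19.

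For 7 members the difference passed only with library 32 among the controls. These were Mmp23 at 2.28, Mmp11 at 2.10, Adamts12 at 3.06, Adamts10 at 1.27, Adam19 at 1.99, Adam10 at 0.36 and Adam23 at -1.33. Without it their adjusted p was between 0.0555 and 0.103, in the same direction.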

How the results depend on the processing

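At 3 weeks the count of members higher stayed between 36 and 39 when each replicate was left out, and that of members lower between 3 and 4. It was 34 higher at an adjusted p under 0.01, 37 in DESeq2 and 28 against all 6 controls, and 29 of 42 called members kept their call in every alternative run. At 2 weeks the count of 0 became 8 at an unadjusted p under 0.05 12 against the 5 controls without library 32, and 10 in DESeq2 without library 32. The 20 stage differences became 6 at an adjusted p under 0.01, and 10 to 29 with a replicate left out. The 11 members that differed between stages in NICD1/Akt livers became 0 at an adjusted p under 0.01, 21 unadjusted, and 0 to 27 with a replicate left out, and the 21 in controls became 13 at an adjusted p under 0.01.

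Signs turned only for members without a call. At 3 weeks, with library size as the only scaling, Adam11 had 0.65, Adam1a 0.22, Adam33 0.40 and Adamts13 0.36. Adam11 also had 0.10 with upper quartile factors, 0.48 against 6 controls and 0.50 against 5. With a replicate left out it ranged from -0.19 to 0.04, and Adam33 from -0.75 to 0.13. At 2 weeks, library size alone gave 0.19 for Adamtsl5, 0.16 for Mmp15 and 0.27 for Mmp9. DESeq2 without library 32 gave 0.20 for Mmp15 and -0.31 for Adam33. The 5 controls gave 0.60 for Adamtsl5, 0.22 for Mmp15, -0.67 for Adam11, -0.32 for Adam1a and -0.58 for Adam9. With a replicate left out at 2 weeks, the range was -0.20 to 0.10 for Adamtsl5, -0.07 to 0.70 for Adam1a, -0.31 to 0.28 for Adam33, -0.12 to 0.18 for Adam9, -0.24 to 0.56 for Mmp11, -0.60 to 0.37 for Mmp23, -0.01 to 0.78 for Mmp28, -0.32 to 0.19 for Mmp15, -0.10 to 1.11 for Mmp27 and -1.34 to 0.29 for Mmp9. The cause was not tested.

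No paired analysis was possible because the groups compared share no replicate numbers. With 3 libraries a group, 1 of them against its label at 2 weeks, small changes at that stage were not detectable at this depth and spread. Members under 1 CPM rest on few counts.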
